A study of Mus musculus with 40 samples.

Results

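The comparison described here asks whether the response of regulatory T cells (Treg) to a semaphorin-4a fusion protein (Sema4a-Ig) depends on the neuropilin-1 genotype of the cells. It uses 32 of the 40 mouse arrays of the series, which form 16 pairs of 1 Sema4a-Ig and 1 control IgG1 array, 8 pairs from cells titled WT and 8 from cells titled NRP KO. For each of 17097 genes the mean Sema4a-Ig minus IgG1 difference of the WT pairs was taken from that of the KO pairs, and all these genes are members. All values are log2 signals or their differences, where 1 is a doubling. A negative KO minus WT difference means that the KO mean lay below the WT mean. The members are all genes measured, so no value was used to select among them. The 4 genes Tmem140, Zbtb20, Ifit1bl1 and Gbp8 came named with the comparison, with earlier results of these data known, so their differences are given as a description.

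All cells were CD4+ CD45RBlo YFP+ lymphocytes sorted from spleen and peripheral lymph nodes of C57Bl/6 mice. Every mouse carried the Foxp3-driven YFP-Cre allele. The WT group is labelled Foxp3-YFPiCre, and the KO group is labelled Nrp fl/fl x Foxp3-YFP-iCre, so the floxed gene is in all cells of these mice and the Cre acts in those that express Foxp3. Both groups received anti-CD3 at 1 µg/mL and IgG1 or Sema4a-Ig at 10 µg/mL on the plate, with anti-CD28 at 2 µg/mL and human IL-2 at 100 U/mL in solution. No culture time is given for these arrays, nor the age or number of the mice. The Sema4a-Ig array of WT replicate 2 is titled WT but carries the floxed genotype in its characteristics. It was kept with its title, and without this pair the genotype comparison again called 0 genes. The labels do not say whether replicates are separate animals, so the spread behind each p-value is that of these samples and may be technical.

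Before deposit, the mean of each pair had been made equal at every probe set, to within 6e-05. Differences within a pair survived this step and levels between genotypes did not. The Nrp1 level therefore cannot check the knockout label, and no level is compared between WT and KO. Of 23 nonspecific control probe sets the highest had a mean log2 signal of 3.95, and 9961 genes lay above it. Foxp3, the factor that defines Treg, had a mean signal of 3.55 on its only probe set, below that control. The other Treg genes of the marker list, Ikzf2, Il2ra, Ctla4 and Tnfrsf18, were above it. Of 6 measured T cell markers all 6 were above it.

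Neuropilin-1 is a surface receptor that Treg carry at high levels in the mouse. It binds semaphorins, and binding of semaphorin-4a is known to restrain the kinase Akt, which keeps FOXO factors in the nucleus. FOXO factors drive Klf2, and KLF2 drives the exit receptor S1pr1. Interferon-stimulated genes, among them the IFIT, OAS and GBP families, answer interferon through factors of the IRF family, which bind a GAAANNGAAA element in their promoters. The GBP and IRG GTPases also answer interferon gamma.

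Promoters are shown first for 5 genes on which the results below turn, because several of the 10 genes with the smallest p and KO below WT are interferon-inducible. Each is the run of 250 bases before the start of the RefSeq gene (assembly GRCm38.p6), 5′ to 3′ on the gene's strand. Capitals mark GAAANNGAAA or, for the other strand, TTTCNNTTTC, where N is any base. Tmem140 lies at chr6:34862896-34863145 on the plus strand, Calhm6 at chr10:34127973-34128222 on the minus strand and Ifit3 at chr19:34583279-34583528 on the plus strand. The Ifit1bl1 window is chr19:34601969-34602218 on the minus strand. The Gbp3 window is chr3:142559794-142560043 on the plus strand.
Tmem140: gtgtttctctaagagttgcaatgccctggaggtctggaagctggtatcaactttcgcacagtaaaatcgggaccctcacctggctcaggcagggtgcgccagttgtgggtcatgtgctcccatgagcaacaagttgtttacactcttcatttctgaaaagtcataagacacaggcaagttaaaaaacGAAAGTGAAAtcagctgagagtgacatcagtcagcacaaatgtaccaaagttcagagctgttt
Calhm6: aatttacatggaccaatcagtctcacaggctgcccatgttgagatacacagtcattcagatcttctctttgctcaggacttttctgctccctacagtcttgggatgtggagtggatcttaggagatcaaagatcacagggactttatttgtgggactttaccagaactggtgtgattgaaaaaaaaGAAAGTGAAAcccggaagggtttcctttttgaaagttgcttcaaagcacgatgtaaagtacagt
Ifit3: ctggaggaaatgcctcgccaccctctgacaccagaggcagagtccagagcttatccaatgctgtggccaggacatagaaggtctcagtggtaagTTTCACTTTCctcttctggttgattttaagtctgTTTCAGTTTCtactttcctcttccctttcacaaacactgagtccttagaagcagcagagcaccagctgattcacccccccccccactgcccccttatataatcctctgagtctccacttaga
Ifit1bl1: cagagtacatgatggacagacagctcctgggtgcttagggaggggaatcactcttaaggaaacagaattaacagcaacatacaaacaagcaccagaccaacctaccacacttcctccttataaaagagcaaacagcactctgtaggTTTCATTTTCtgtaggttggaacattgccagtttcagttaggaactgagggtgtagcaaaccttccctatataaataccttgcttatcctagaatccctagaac
Gbp3: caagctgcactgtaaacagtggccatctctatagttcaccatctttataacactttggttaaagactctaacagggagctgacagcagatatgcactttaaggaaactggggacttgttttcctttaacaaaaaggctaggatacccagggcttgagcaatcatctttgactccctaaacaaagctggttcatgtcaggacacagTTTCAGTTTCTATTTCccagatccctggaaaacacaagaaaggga

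The element was present in 978 of 32851 start site windows (2.98%). Among genes measured on the arrays with a window, 421 of 13605 held it (3.09%). In the type I interferon list 11 of 25 genes with a window held it, in the GBP and IRG list 7 of 7, in the KLF and trafficking list 0 of 9, and in the T cell receptor activation list 1 of 24. Of the 10 genes with the smallest p among those with KO below WT, 8 had a window and 3 held the element, namely Tmem140, Calhm6 and Ifit3. Of the 10 with KO above WT, 8 had a window and 0 held it. Both listed starts of Ifit1bl1 held 1 copy, Ifit3 held 2 copies, and the 2 copies at the Gbp3 start shown overlap in 1 run. The other listed Gbp3 start held none. The Zbtb20 window held none, and nor did those of Samd9l, Irf7, Ddx58, Oasl2, Xaf1 and Isg20. Every window printed above holds the element, so the printed ones do not stand for the whole list. A match describes these letters only and shows no binding.

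No single gene passed the test of the genotype difference. With limma, 0 of 17097 genes were called at an adjusted p under 0.05 (background 0%), and the smallest adjusted p was 0.614. At an unadjusted p under 0.05 there were 1015 genes, 5.94% of those tested, where 855 would be expected if no gene differed. Of these, 588 had KO below WT (3.44%) and 427 had KO above WT (2.50%). An exact permutation test over all 12870 ways to split the pairs also called 0 genes, with 1042 at an unadjusted p under 0.05 and a smallest adjusted p of 0.38. Its smallest possible p was 0.000155. The median standard error of the difference was 0.142, and 99 genes had a difference of at least 0.5 in size. The ranges of the WT and KO pairs did not overlap for 7 genes (0.0409%), 5 of them with KO below WT (0.0292%).

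The separate effects differed in how many genes passed. In WT, 498 genes rose (2.91%) and 492 fell (2.88%), together 5.79% of those tested. In KO 0 genes were called, the smallest adjusted p was 0.376, and 1787 genes (10.5%) had an unadjusted p under 0.05. The WT count was 538 without WT replicate 1, 258 without WT replicate 3, 413 without WT replicate 7, and 306 with the mean of myeloid markers as a covariate. These counts are not a test of the difference, which is the result above. Over genes, the WT and KO means had a Pearson correlation of 0.511, given as a description with no p. The median spread between pairs was alike in both genotypes, with SDs of 0.274 in WT and 0.279 in KO.

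Genes called on the average of both genotypes were used to set the size of the response in KO against that in WT. With 8 pairs each, the average is independent of the difference only where both genotypes have the same spread. Over the called genes the median ratio of the WT to the KO variance was 1.35, against 1 over all genes, so that condition was not met on balance. The choice of genes can then favour those larger in WT, and the shares below are a description. The average called 1633 genes (9.55%), 620 higher (3.63%) and 1013 lower (5.93%) with Sema4a-Ig. With each pair difference centred on its median over genes the split was 728 and 799. Along the direction of the average effect, their median was 0.35 in WT and 0.22 in KO, and the median KO minus WT difference was -0.14. It was -0.0767 with the mean of myeloid markers as a covariate and -0.0805 in a fit of 32 arrays without pairs. The count was 1000 without WT replicate 3 and 1068 without KO replicate 3. The effect was smaller in KO for 1361 of them (83.3%), against 58.3% of all genes signed the same way. The sign was the same in both genotypes for 1630, against 11083 of 17097 over all genes. A call on the average favours genes with the same sign in both genotypes, so this count follows largely from the choice. An unadjusted p under 0.05 for the difference was seen for 235 of them, against 5.94% of all genes. Of these 235, 228 were smaller in KO, against 708 of 1015 over all genes.

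Both directions of the response had the larger median in WT. The 620 higher genes had medians of 0.37 in WT and 0.19 in KO, with 88.1% smaller in KO. The 1013 lower genes had medians of 0.34 and 0.23 in size, with 80.5% smaller in KO. Of 71 genes with an average effect of at least 0.5, 67 were smaller in KO, with medians of 0.76 and 0.40.

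**Figure D1:**
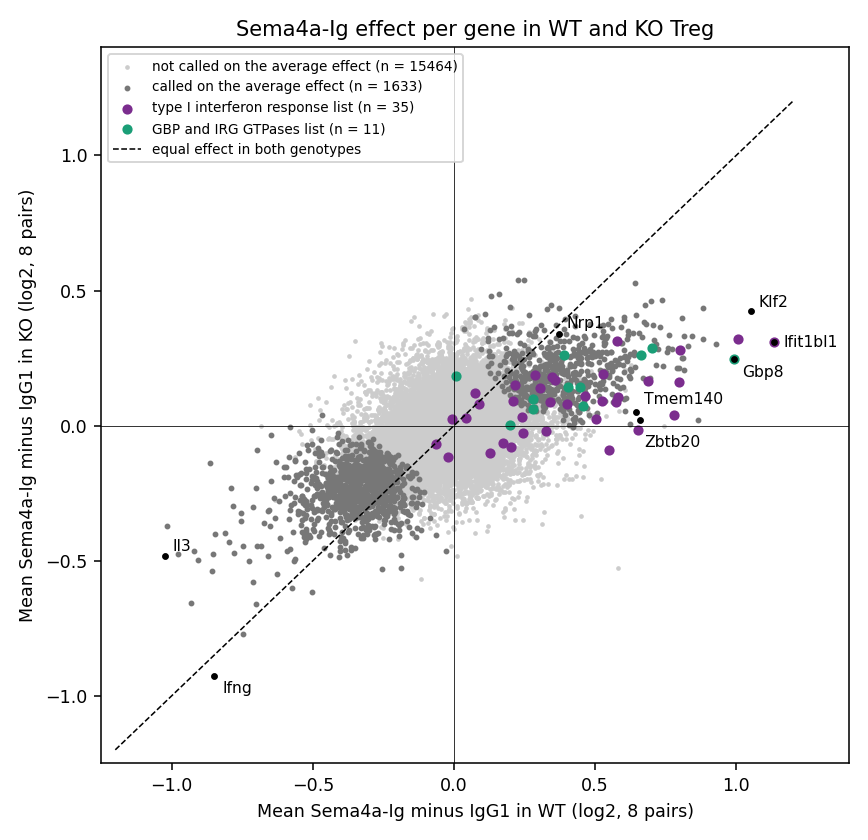
Mean Sema4a-Ig minus IgG1 difference of each gene in WT (x axis) and in KO (y axis), log2, over 8 pairs each, with the genes called on the average effect in dark grey and 2 gene lists in colour. Most interferon response and GBP or IRG genes lie to the right of 0 and below the line of equal effect, while Nrp1 and Ifng lie close to that line.

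The size of the response varied widely between pairs of 1 genotype. Over the 1633 genes the median difference along the average effect was 0.14 to 0.73 in the WT pairs and 0.04 to 0.52 in the KO pairs. Replicate 3 was the highest of both genotypes, at 0.73 in WT and 0.52 in KO. WT replicates 1 and 7 followed at 0.52 and 0.38. KO replicates 6 and 7 were the lowest pairs at 0.06 and 0.04, and the ranges of the genotypes overlapped over most of their length. Genes were chosen from these same pairs, so the heights describe the pairs and test nothing. Without replicate 3 of both genotypes, a choice made after seeing the data, 431 genes were called in WT and 579 on average, and the difference again called 0 genes.

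**Figure D2:**
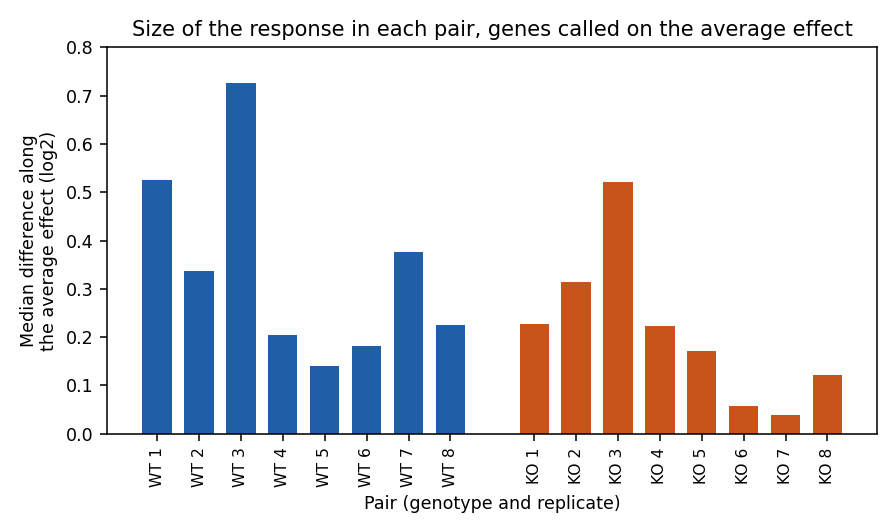
Median Sema4a-Ig minus IgG1 difference in each pair, signed along the average effect, over the 1633 genes called on that effect (log2, bars from 0). WT pairs run from 0.14 to 0.73 and KO pairs from 0.04 to 0.52, with replicate 3 the highest in each genotype.

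Tmem140, which encodes a transmembrane protein, had the clearest separation of the 4 named genes. Its WT pair differences were 0.20 at the lowest, 0.66 at the median and 1.07 at the highest, and its KO pair differences were -0.11, 0.08 and 0.17. Every WT pair lay above every KO pair. The KO minus WT difference was -0.60 ± 0.13 (SE), with an unadjusted limma p of 0.000126, an exact permutation p of 0.000155 (the smallest possible) and an adjusted limma p of 0.614. Zbtb20, a transcriptional repressor of the BTB zinc finger family, ran from 0.12 through 0.65 to 1.17 in WT and from -0.35 through 0.09 to 0.52 in KO. Its ranges overlapped, and the difference was -0.64 ± 0.14, with an exact permutation p of 0.000932 and an adjusted limma p of 0.614. The other 3 probe sets of Zbtb20 gave -0.53, -0.43 and -0.17, and their mean with the chosen one was -0.44.

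Ifit1bl1, an interferon-induced gene of the IFIT family, had the largest WT mean of all genes tested. Its WT pairs ran from 0.27 through 1.09 to 2.06 and its KO pairs from -0.23 through 0.40 to 0.88. All 8 WT pairs and 7 of 8 KO pairs were positive, and the ranges overlapped. The difference was -0.82 ± 0.21, with an exact permutation p of 0.00389 and an adjusted limma p of 0.614. Gbp8, a guanylate-binding GTPase of the interferon response, ran from 0.29 through 0.87 to 1.78 in WT and from -0.35 through 0.25 to 0.79 in KO. Its difference was -0.75 ± 0.20, with an exact permutation p of 0.00559 and an adjusted limma p of 0.642. All 4 genes rose in WT, against 2.91% of all genes. In KO 0 of 4 passed, but 0 of all 17097 genes did, so that count does not set these 4 apart.

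**Figure D3:**
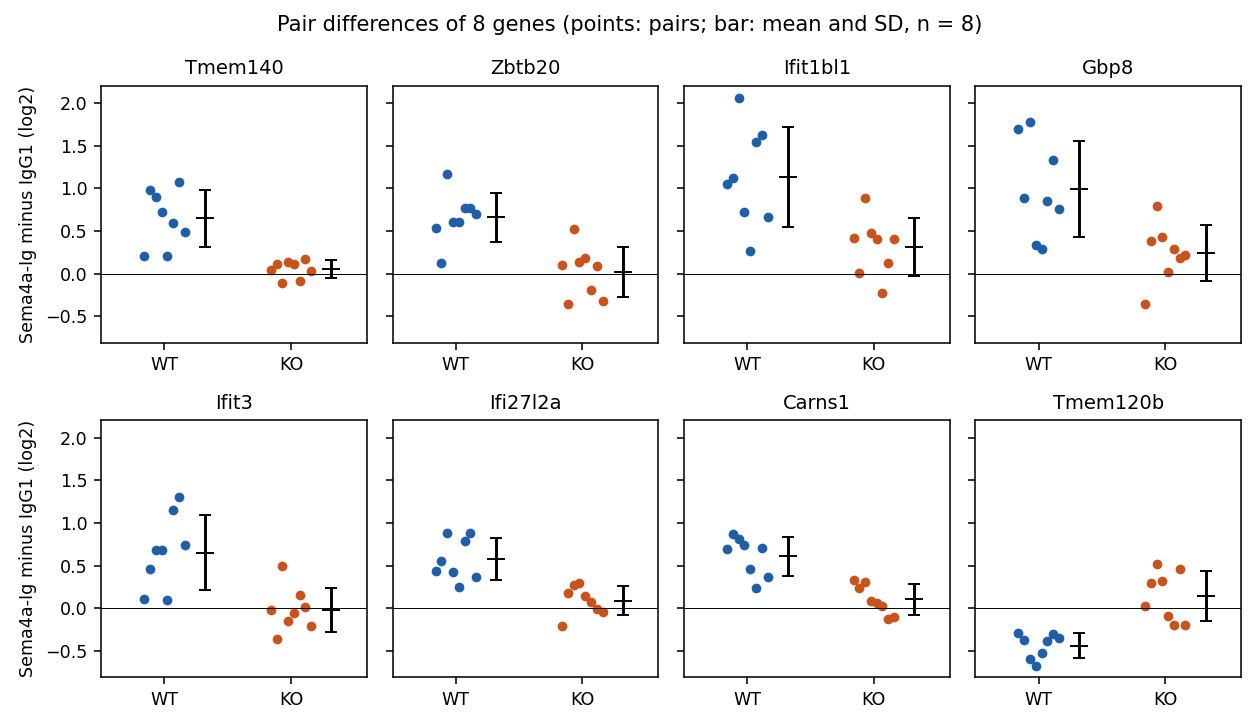
Sema4a-Ig minus IgG1 difference of each pair (points, log2) for 8 genes in WT and KO, with the mean and SD of 8 pairs beside the points. WT and KO points do not overlap for Tmem140 and Tmem120b, and overlap for the other 6 genes.

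Among the 10 genes with the smallest p and KO below WT, all 8 WT pairs were positive for each gene, as for 3.03% of all genes. This is a description, since the p chose them. Their differences ran from -0.72 to -0.46. Besides Tmem140 and Zbtb20 they were Carns1 (carnosine synthase), the transcription factor genes Creb5 and Foxd2, the scaffold gene Ahnak, and the interferon-inducible genes Calhm6, Ifi27l2a, Ifit3 and Samd9l. Carns1 had a WT mean of 0.61 ± 0.23 (SD, n = 8) and a KO mean of 0.10 ± 0.18. Calhm6, a membrane channel family gene, had 0.52 ± 0.23 and -0.20 ± 0.48. Ahnak had 0.56 ± 0.26 and 0.09 ± 0.18. For Foxd2 the groups did not overlap, but Foxd2 and Creb5 had mean signals of 3.43 and 3.45, below the highest nonspecific control.

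The 10 genes with the smallest p and KO above WT were dimmer, and 5 of them had a mean signal below that control. Their differences ran from 0.44 to 0.66. Tmem120b, a membrane protein gene, led them. It ran from -0.67 through -0.38 to -0.29 in WT and from -0.20 through 0.16 to 0.51 in KO, with no overlap and a difference of 0.58 ± 0.12. The 4 other genes above the control were Tas1r3 (a taste receptor subunit, 0.56), Ap5s1 (an adaptor complex subunit, 0.66), Gas2l1 (a cytoskeletal linker, 0.44) and Tfeb (a transcription factor of lysosomal genes, 0.47). All 8 KO pairs were positive for 4 of the 10, against 0.988% of all genes, which is a description because the p chose these genes too. The 5 dim ones were Tctex1d4, Slc4a11, 2410124H12Rik, Gm19600 and D630033O11Rik. Jchain, the immunoglobulin joining chain of plasma cells, had the largest difference in size, at -1.11 ± 0.28, also at a signal below the control (3.36). It was picked out after its value was seen.

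The type I interferon response list had the largest share of members with KO below WT of the pathway lists examined. Of 40 genes on the list 35 were measured, and 33 had KO below WT, against 49.5% of all genes. Their median effect was 0.35 in WT and 0.09 in KO, with a median difference of -0.27, against 0.00 over all genes. In WT 18 of the 35 rose, against 2.91% of all genes, and 0 fell. At an unadjusted p under 0.05, 18 of the 35 differed between genotypes, all with KO below WT, against a background of 3.44%, and 0 passed after adjustment. With the mean of myeloid markers, which also lay lower in KO, as a covariate the count was 11. The list and its direction were known from earlier results of these data, so these counts describe the list and are not independent evidence. Under the alternatives that kept all 35 genes, 30 to 34 of them had KO below WT.

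Genes of this list with the smallest p or called in WT include sensors, transcription factors and effectors. Irf7, the factor that amplifies the response, ran from 0.02 through 0.39 to 1.41 in WT and from -0.44 through -0.09 to 0.22 in KO, a difference of -0.64 ± 0.17. Ddx58, which encodes the RNA sensor RIG-I, had means of 0.52 in WT and 0.09 in KO. Among effectors, Ifit3 had means of 0.65 and -0.02, Ifit1 of 0.78 and 0.04, and the exonuclease gene Isg20 of 0.50 and 0.02. Ifi213, a member of the DNA-sensing Ifi200 family, had 1.01 and 0.32, and the oligoadenylate synthetase-like gene Oasl2 had 0.80 and 0.28. Rtp4, a chaperone of membrane receptors, had 0.80 and 0.16, and Xaf1, a proapoptotic gene, had 0.58 and 0.11. Samd9l, an antiviral factor, was positive in all 16 pairs, at 0.69 ± 0.34 (SD, n = 8) in WT and 0.17 ± 0.13 in KO. The 2 genes with KO above WT were Mx1 and Slfn5, by 0.03 and 0.05.

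GBP and IRG GTPases, which attack the vacuoles of intracellular microbes, followed the same order. Of 16 genes 11 were measured, 10 had KO below WT (49.5% of all genes), and the median was 0.40 in WT and 0.14 in KO. In WT 8 of the 11 rose, against 2.91% of all genes. At an unadjusted p under 0.05, 5 differed between genotypes, all with KO below WT, against 3.44% of all genes, and with the myeloid covariate the count was 2. Beside Gbp8 these were Gbp3 (0.70 in WT and 0.29 in KO), Gbp7 (0.66 and 0.26), Gbp10 (0.46 and 0.07) and Gbp2 (0.45 and 0.14). Second probe sets of Gbp7, Gbp10 and Gbp2 gave differences of -0.46, -0.36 and -0.33. GBP genes are near copies of one another, and probe sets may not tell all of them apart. Tgtp1, an IRG GTPase, had 0.40 and 0.14. Gbp4 alone had KO above WT, by 0.18.

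**Figure D4:**
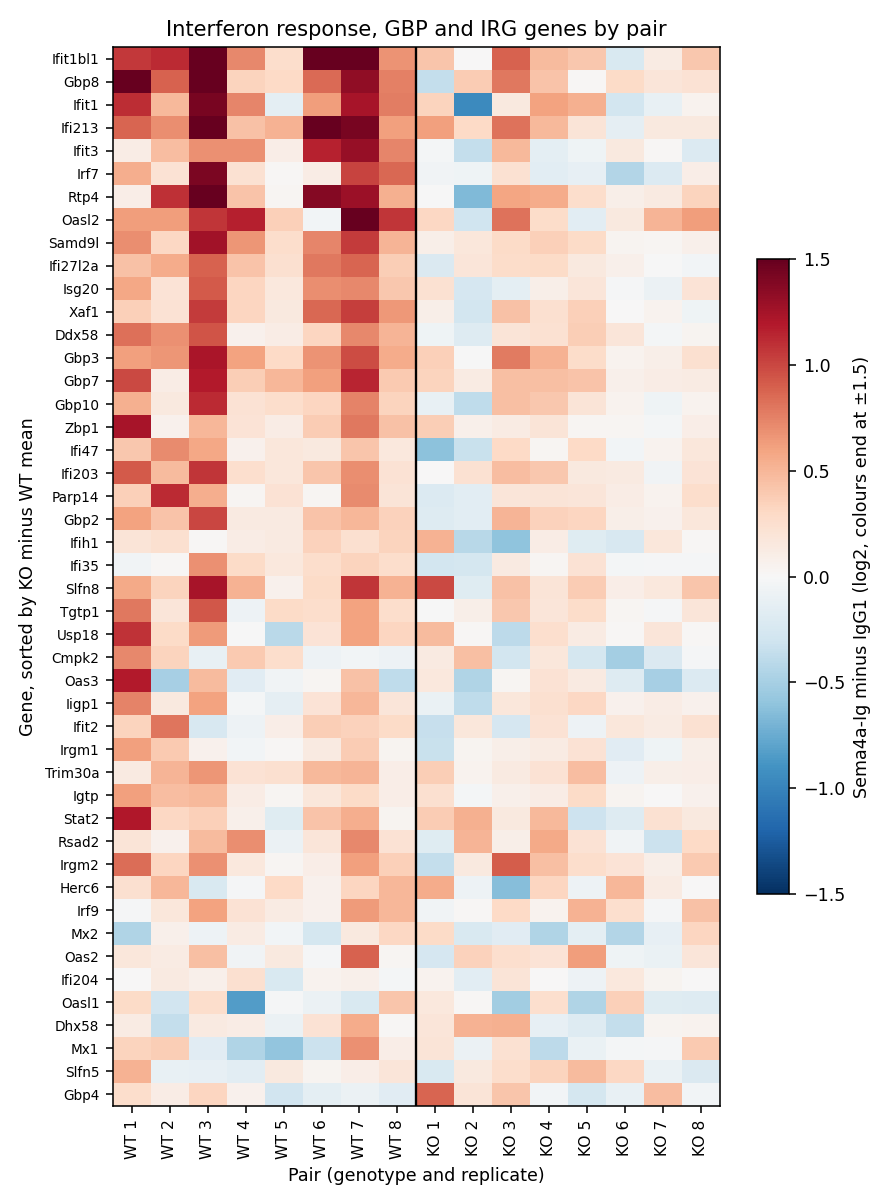
Sema4a-Ig minus IgG1 difference (colour, log2, ending at 1.5 in either direction) of 46 interferon response, GBP and IRG genes (rows, sorted by KO minus WT) in 16 pairs (columns). The upper rows are red in most WT pairs, most deeply in WT replicates 3 and 7, and pale in most KO pairs, while the lowest rows show no order between genotypes.

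Markers of myeloid cells, which the sort should have removed, lay in the same direction. The mean of 16 myeloid markers was 0.21 ± 0.26 (SD, n = 8) in the WT pairs, from -0.22 to 0.54, and 0.01 ± 0.18 in the KO pairs, from -0.22 to 0.37. Of the 16 markers 12 had KO below WT, against 49.5% of all genes, and 8 had a mean signal above the highest control. Lyz2 and S100a8 had an unadjusted p under 0.05, with differences of -0.56 and -0.79. With this mean as a covariate 30 of 35 interferon genes and 10 of 11 GBP and IRG genes were below WT. In that fit the interferon genes with KO below WT at an unadjusted p under 0.05 went from 18 to 11. The genes called in WT went from 990 to 306. Gzma (CD8 and NK list, -0.51) and Hba-a1 (erythroid list, -0.55) also had an unadjusted p under 0.05. The mean signal of Gzma was 3.81, below the highest control. In the CD8 and NK list 5 of 11 genes had KO below WT, with a median difference of 0.01, and in the erythroid list 3 of 4. The means of the CD8 and NK list were -0.12 in WT and -0.14 in KO, those of the erythroid list 0.15 and -0.00488, those of the B cell list 0.08 and 0.04, and those of the dendritic cell and MHC class II list 0.07 and 0.05. Treg markers had means of 0.09 and -0.02, and T cell markers 0.10 and 0.06.

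RNA quality controls also varied between pairs. The Gapdh 3' minus 5' signal difference was 0.16 ± 0.29 (SD, n = 8) in WT and 0.01 ± 0.07 in KO, and that of Actb was 0.00 ± 0.14 and 0.03 ± 0.10. Labelling spikes were 0.11 ± 0.31 in WT and -0.43 ± 0.97 in KO, where KO replicate 5 was at -2.73. The part of other cells or of RNA quality in the genotype difference was not tested beyond the covariate fits. In these bulk samples, fewer cells of a type and less RNA per cell cannot be told apart.

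Of 15 KLF factors and trafficking genes 12 were measured, with medians of 0.34 in WT and 0.20 in KO. In WT 6 rose, against 2.91% of all genes, and in KO 0 passed, as over all genes. On the average of both genotypes 7 were called higher and 2 lower, against 3.63% and 5.93% of all genes. KO was below WT for 10 of 12, against 49.5% of all genes. Klf2, which keeps T cells quiescent and recirculating, ran from 0.45 through 0.98 to 1.96 in WT and from 0.02 through 0.40 to 1.19 in KO. It was positive in all 16 pairs, the ranges overlapped, and the difference was -0.63 ± 0.19 with an adjusted limma p of 0.675. S1pr1, the receptor for exit from lymph nodes, had means of 0.71 and 0.32, S1pr4 had 0.46 and 0.17, and the gut-homing integrin gene Itgb7 had 0.56 and 0.27. These 4 genes made up the list's unadjusted calls, against 3.44% of all genes with KO below WT, and with the myeloid mean as a covariate the count was 1. Klf3 had 0.74 and 0.46, and 1 of its 5 other probe sets had KO above WT.

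The 18 measured genes of the FOXO and quiescence list had medians of 0.25 in WT and 0.15 in KO. In WT 6 of them rose, against 2.91% of all genes. KO was below WT for 12, against 49.5% of all genes, with a median difference of -0.125. Over all probe sets of each gene KO was below WT for 10, with a median of -0.02. Txnip, an inhibitor of glucose uptake and thioredoxin, was the 1 gene with an unadjusted p under 0.05, a share close to the 5.94% of all genes, at 0.77 in WT and 0.28 in KO. Tsc22d3 had means of 0.62 and 0.26, Btg1 of 0.26 and 0.06, Trib2 of 0.70 and 0.46, and the cell cycle inhibitor gene Cdkn1b of 0.47 and 0.25. For Cdkn1b the mean over all probe sets turned the sign of the difference, to 0.02. Naive T cell genes had medians of 0.23 and 0.10 over 9 genes, 6 of them below WT, against 49.5% of all genes. Nsg2 had 0.54 and 0.27. The list's 2 unadjusted calls, against 5.94% of all genes, were Klf2 and S1pr1, which are shared with the trafficking list.

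T cell receptor activation genes were on balance lower with Sema4a-Ig in both genotypes. These had medians of -0.25 in WT and -0.22 in KO over 32 genes, and 11 had KO below WT, against 49.5% of all genes. Irf8, a factor induced by receptor signalling, was negative in all 16 pairs, at -0.92 ± 0.54 (SD, n = 8) in WT and -0.46 ± 0.48 in KO. Spry1, a feedback inhibitor of ERK signalling, had -0.66 and -0.31, and Rgs16, a regulator of G protein signalling, had -0.85 and -0.48. Fosl2, an AP-1 subunit, had an unadjusted p under 0.05 with KO below WT, at 0.05 in WT and -0.19 in KO. Irf8 and Fosl2 were the list's 2 unadjusted calls among 32 genes, a share close to the 5.94% of all genes. Exact permutation p-values were 0.0936 for Irf8 and 0.0351 for Fosl2. The second probe set of Irf8 gave a difference of 0.28, against 0.46 on the chosen one.

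Effector cytokine genes had medians of -0.29 in WT and -0.06 in KO. For the difference 0 passed, with a smallest adjusted p of 0.791 in limma. Ifng, the signature cytokine of Th1 cells, ran from -1.95 through -0.64 to -0.06 in WT and from -2.60 through -0.70 to 0.02 in KO. Its means were -0.85 and -0.93, and the 95% interval of the difference was -0.73 to 0.58. Csf2, which encodes GM-CSF, had -0.75 and -0.77, with an interval of -0.56 to 0.51. Neither interval excludes a difference as large as that of Gbp2 or Klf3, so equal effects are not shown. Il3, a T cell growth factor for myeloid cells, had -1.02 and -0.48, and Il2 had -0.54 and -0.07. Lta, which encodes lymphotoxin alpha, had -0.41 and -0.04. It was the 1 unadjusted call among 18 genes, a share close to the 5.94% of all genes. Of 18 cytokine genes measured, 6 had KO below WT and 5 fell in WT, against 49.5% and 2.88% of all genes. Xcl1, a chemokine gene among the largest average effects, was negative in all 16 pairs, at -0.93 and -0.66.

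Treg signature genes had medians of 0.11 in WT and 0.01 in KO over 26 genes, with 20 below WT, against 49.5% of all genes. In WT 7 rose and 2 fell, against 2.91% and 2.88% of all genes. Ecm1, a secreted matrix protein gene, had means of 0.83 and 0.29, and Nt5e, which encodes the adenosine-producing enzyme CD73, had 0.53 and 0.20. The second probe set of Nt5e, also above the control, gave 0.11 and 0.12, and its remaining, dim one had KO above WT by 0.15. Lag3, an inhibitory receptor gene, went the other way, at -0.54 in WT and -0.03 in KO. Ikzf2, which encodes Helios, had 0.29 and 0.07 (-0.19 and -0.17 on its second probe set), and the chemokine receptor gene Ccr8 had -0.91 and -0.50. Trat1, an adaptor of the T cell receptor complex and 1 of the 5 largest positive average effects, was positive in all 16 pairs, at 0.88 and 0.44.

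Growth and metabolism lists had 0 or 1 unadjusted call each, against 5.94% of all genes. For the counts below, 49.5% of all genes had KO below WT. Cell cycle genes had medians of -0.26 in WT and -0.17 in KO over 30 genes, with 8 below WT. E2f1, a factor of S phase entry, had means of -0.24 and 0.13, but -0.07 and -0.05 on a second probe set of similar signal, and over all probe sets the list had 0 unadjusted calls. Cdc6 had -0.58 and -0.29, and Aurkb had -0.52 and -0.31. Integrated stress response genes had medians of -0.17 and -0.15 over 19 genes. Shmt2, a mitochondrial serine enzyme, had -0.48 and -0.10, and Cth, the cystathionine lyase gene, had -0.98 and -0.48. The mean signal of Cth was 3.78, below the highest nonspecific control. Glycolysis genes had -0.18 and -0.10 over 17 genes, with Slc16a1 at -0.56 and -0.27 and Hk2 at -0.45 and -0.22. Sterol and fatty acid synthesis genes had -0.24 and -0.13 over 16 genes, with Acaca at -0.60 and -0.26 and Idi1 at -0.36 and -0.16. PI3K, Akt and mTOR genes, the pathway that neuropilin-1 is known to restrain, had 0.06 and -0.02 over 17 genes, with 12 below WT and 0 unadjusted calls. Over all probe sets of each gene that list had 7 of 17 below WT, a median difference of 0.01 and 2 unadjusted calls, so its direction turned. Of its genes, Rptor had -0.19 and 0.06, and the Akt phosphatase gene Phlpp1 had 0.27 and 0.06.

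**Figure D5:**
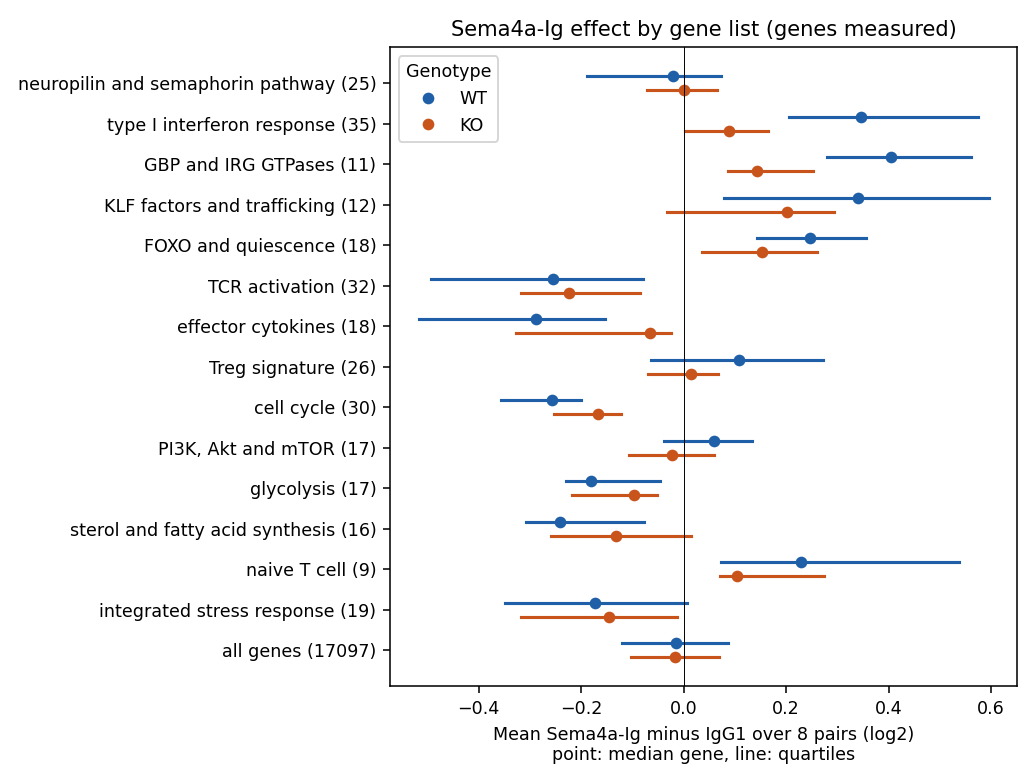
Mean Sema4a-Ig minus IgG1 difference (log2) in WT and KO by gene list, with the median gene as a point, the quartiles as a line and the number of genes measured in brackets. The interferon response list stands at 0.35 in WT and 0.09 in KO, T cell receptor activation at -0.25 and -0.22, and all genes close to 0.

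Nrp1, the receptor itself, had a mean effect of 0.37 in WT and 0.34 in KO. Nrp1 rose with Sema4a-Ig in WT, from 0.10 through 0.28 to 0.86 over the pairs, and its KO pairs ran from 0.03 through 0.33 to 0.79. It was positive in all 16 pairs. The difference was -0.03 ± 0.13 with an adjusted limma p of 0.993 and a 95% interval of -0.30 to 0.24, and its sign turned without single pairs (from -0.10 to 0.04) and with the myeloid covariate (0.08). Its other 2 probe sets gave 0.01 and -0.04. Of 25 genes in the neuropilin and semaphorin list 9 had KO below WT and 0 had an unadjusted p under 0.05, against 49.5% and 5.94% of all genes. Sema4a had means of 0.13 in WT and -0.15 in KO. The 9 measured plexins, receptors and coreceptors of semaphorins, ran from -0.26 for Plxna3 to 0.25 for Plxna4, with a smallest unadjusted p of 0.0992. Gipc1, an adaptor of the neuropilin tail, had -0.20 and 0.01. Foxp3 had a difference of 0.07 ± 0.13 at its dim signal, and the myeloid covariate turned its sign (-0.02).

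A second experiment of the series gave a readout that the comparison did not use. Treg of Foxp3-GFP mice were cultured for 48 h with or without anti-CD3 and anti-CD28, 3 arrays each, on another array type. Activated minus resting, limma called 135 of 18194 genes (0.742%), 40 of them lower in activated Treg (0.220%). Ifit1bl1 fell by 1.76 ± 0.30 (SE, adjusted p = 0.0455 in limma). Klf2 fell by 0.95 ± 0.16 (adjusted p = 0.0433 in limma). Tmem140 was at -1.05, Zbtb20 at -0.79, Calhm6 at -0.86 and Gbp8 at -0.34, none of which passed, with adjusted p from 0.121 to 0.444 in limma. Other interferon genes named above were positive, among them Rtp4 (0.65), Xaf1 (0.59) and Ifi27l2a (0.28), which did not pass either. Of 37 interferon response genes on that array 25 were negative (67.6%), with a median of -0.26, and 12 of 14 KLF and trafficking genes were negative. Of 9 GBP and IRG genes 3 were negative, with a median of 0.16, against 49.4% and 0.00 over all genes.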

How the data were processed

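Arrays of 4 groups of 8 (genotype by ligand) were analysed, with 8 arrays of sorted T cells as a second readout. The deposited values are log2 signals per probe set, made by the authors with RMA and Partek 6.6 per the submitters' processing notes. Further steps, which equalised the pair means, are not given here. Arrays were paired by neighbouring title codes (odd IgG1, next even Sema4a-Ig) of 1 title genotype. Gene names came from the platform annotation, updated through a RefSeq table, and of 45141 probe sets 29449 were listed with a gene, 551 with several. Those and probe sets with no name did not enter, and each gene took the probe set with the highest mean. The 16 pair differences entered 1 limma 3.58.1 fit (R 4.3.3, lmFit and eBayes, two-sided) with a mean per genotype and 14 residual degrees of freedom, and p-values were adjusted over all 17097 genes (Benjamini-Hochberg, threshold 0.05). All unadjusted p-values are from this fit unless called exact. The number of arrays limits the precision. Scripts were tested on simulated data. The members are all genes measured, while the lists and the rules for naming genes were set with earlier results of these data known. Named are the 10 genes with the smallest p in each direction, the 4 genes given with the comparison, Nrp1, Foxp3, Sema4a and plexins, the 5 largest average effects in each direction, up to 4 genes of each list by p, with others of a list called in WT or on average, and markers of other cell types. Of 84 named genes 36 had over 1 probe set, and all of them gave 1 sign for 25. Mx1, Slfn5, Gbp4, Il2ra, Ctla4 and Tnfrsf18 are named but were not among these 84, so they were not checked or refitted singly. Alternatives left out each pair and changed the pairing, block, weights, variance prior, centring, scaling, dim genes, probe set rule, covariates and test.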

Additional observations from a re-analysis of the deposited data

Results flagged for a closer look

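The 84 genes that were refitted, and the control and marker values, were checked in the 8 pairs of each genotype. The check sought 1 pair that stood apart from the other 7 (the gap to the nearest pair over the whole range, above Dixon's 95% value). Of 194 groups of pairs 16 held such a pair, and chance gives about 1 in 20. KO replicate 3 stood apart at the high end for Klf2 (1.19, the nearest pair at 0.51), Klf3 (1.37, nearest 0.65), Nt5e (0.54, nearest 0.29), Plxna4 (1.11, nearest 0.26) and the hybridisation spikes (0.46, nearest 0.20), and at the low end for Hk2 (-0.72, nearest -0.27). WT replicate 3 did so for Itgb7 (1.27, nearest 0.59) and Hba-a1 (1.47, nearest 0.60), and at the low end for Hk2 (-1.54, nearest -0.50). WT replicate 1 was low for Acaca (-1.82, nearest -0.69). KO replicate 1 was high for Lta (0.55, nearest 0.06) and for the Actb 3' minus 5' difference (0.24, nearest 0.05) and low for Gzma (-0.76, nearest -0.28). KO replicate 2 was low for Rtp4 (-0.67, nearest -0.01), KO replicate 6 was high for Slc4a11 (0.56, nearest 0.11), and KO replicate 5 was low for the labelling spikes (-2.73, nearest -0.61). No gene had its 8 WT pairs and 8 KO pairs on opposite sides of 0.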

How the results depend on the processing

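The genotype difference called 0 genes under every alternative run but the fit of group means over 32 arrays, which called 530. That fit takes the mirrored arrays of a pair as independent. Over the others the smallest adjusted p ran from 0.129 (array weights) to 0.876 (without WT replicate 7). The 32-array fit also called 4417 genes in WT, 1734 in KO and 5243 on average, with 72.3% of the last smaller in KO and a median signed difference of -0.0805. Leaving out 1 pair at a time gave 258 to 1328 genes in WT and 1000 to 1642 on average, and 76.3% to 89.8% of the average calls were smaller in KO. WT calls were 538 without WT replicate 1, 258 without WT replicate 3 and 413 without WT replicate 7, and average calls were 1068 without KO replicate 3. Without replicate 3 of both genotypes, added after seeing the data, 431 genes were called in WT and 579 on average. Genes with a mean log2 of at least 5 gave 1688 in WT. With the myeloid mean as a covariate, 306 were called in WT and 1 in KO, 73% of the average calls were smaller in KO with a median signed difference of -0.0767, and 11 interferon list genes had an unadjusted p under 0.05. Where no cause is named, the cause was not tested. Centring each pair moved the split of average calls from 620 higher and 1013 lower to 728 and 799, and that of WT calls from 498 and 492 to 564 and 402. Deviations of WT and KO pairs of the same title code set correlated at 0.23 in set 2, which is replicate 3 of both genotypes. In the other sets the correlations ran from -0.03 to 0.08, and WT and KO pairs of unlike sets had a mean of -0.01. With title code sets as a replicate block, 0 genes were called for the difference (smallest adjusted p 0.5), 1003 in WT and 1467 on average.

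Of 2416 values of the 84 named genes under the alternatives, 2353 kept their sign and stayed uncalled, 43 passed in the 32-array fit, and 20 turned sign. Those 20 belong to 5 genes. Without single pairs Csf2 ran from -0.156 to 0.129, Ifng from -0.234 to 0.163 and Nrp1 from -0.0968 to 0.0382. Csf2 was 0.0846 with array weights, and Ifng was 0.00605 without replicate 3 of both genotypes. With the myeloid covariate Nrp1 was 0.0798 and Foxp3 was -0.0221. Cdkn1b was 0.0222 over all its probe sets. Over all probe sets of each gene the PI3K, Akt and mTOR list turned its direction, to 7 of 17 genes with KO below WT, and the CD8 and NK list went from 5 to 6 of 11.

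The deposited values give no depth, only signal over background. Of 17097 genes 9961 had a mean above the highest nonspecific control, and differences of dimmer genes are the least certain. The spread between pairs of 1 genotype, and the equalised pair means, limit what the genotype comparison can resolve.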
